A study of Mus musculus with 18 samples.

Results

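The 9 genes described here encode parts of the tight junction. They are 5 claudins (Cldn1, Cldn3, Cldn4, Cldn7 and Cldn12), occludin (Ocln), junctional adhesion molecule A (F11r), and the cytoplasmic scaffolds zonula occludens 1 (Tjp1) and Magi1. They were taken by name after Ensembl gene IDs had been matched to mouse symbols, and each of the 9 symbols matched 1 of the 41605 gene IDs in the files. RNA was sequenced from skin of C57BL/6 mice aged 8 to 12 weeks in 3 groups of 6 libraries, treated with PBS (phosphate-buffered saline, the control), Detergent A or Detergent B, a pair of household laundry detergents that the labels identify by these letters alone. The question set by the series is how skin exposed to each detergent compares with skin given PBS. Dose, duration of exposure and body site are not in the labels, and they do not say that the libraries came from separate animals. All p-values therefore rest on the spread among the deposited libraries, part of which may be technical.

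Tight junctions seal the space between neighbouring epithelial cells. Claudins form the strands and set which ions and small molecules can pass, occludin and F11r are further membrane proteins of the junction, and Tjp1 and Magi1 tie the membrane proteins to the actin cytoskeleton and to signalling proteins. In the epidermis the sealing junctions lie in the granular layer, below the cornified layer, and loss of claudin 1 in mice is known to cause lethal water loss through the skin.

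In these libraries, 1 of the 9 genes passed the test against PBS. Cldn3 fell with detergent B to 0.526 of its PBS level, a call close to the threshold that several alternatives did not keep. The highly expressed members Cldn1, Cldn4, F11r and Tjp1, together with Cldn12 and Ocln, had fitted folds between 0.973 and 1.15 against PBS, and the 95% confidence intervals of those 6 genes ran from 0.810 to 1.34. Magi1 and Cldn7 had lower means with both detergents, Magi1 at 0.671 and 0.665 of PBS with detergents A and B, without passing. Their levels moved with the hair keratin content of the libraries, as did those of 25.2% of all genes tested. That is 2 of 9 members (22.2%), a share near the background. Levels are given as CPM, the read count relative to the scaled library size. A difference passed the test at an adjusted p of 0.05 in edgeR's quasi-likelihood test over 16836 genes, and both detergents were compared with the same 6 PBS libraries.

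Library totals ranged from 17312623 to 29599018 counts. Epidermal keratins were abundant in all 18 libraries (Krt5 between 4375 and 9319 CPM), whereas the simple epithelial keratin Krt8 did not exceed 1.88 CPM. The summed level of 8 suprabasal epidermal genes had a median of 16560.0 CPM in PBS, 25060.0 with detergent A and 35730.0 with detergent B, where the lowest library held 24520.0 CPM against 25840.0 in the highest PBS library. For 6 basal epidermal genes the medians were 11670.0, 20270.0 and 16030.0 CPM. The part of these shifts in the member values was not tested, apart from a fit with the basal score. Hair shaft and inner root sheath genes, of which 12 of 13 listed were in the files, varied far more. Their summed level ran from 141 to 6221 CPM in PBS, from 4.58 to 4425 CPM with detergent A and from 13.5 to 3546 CPM with detergent B, and PBS replicate 6 was the lowest of its group. In bulk skin, fewer cells of a type and less RNA per cell cannot be told apart.

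**Figure D1:**
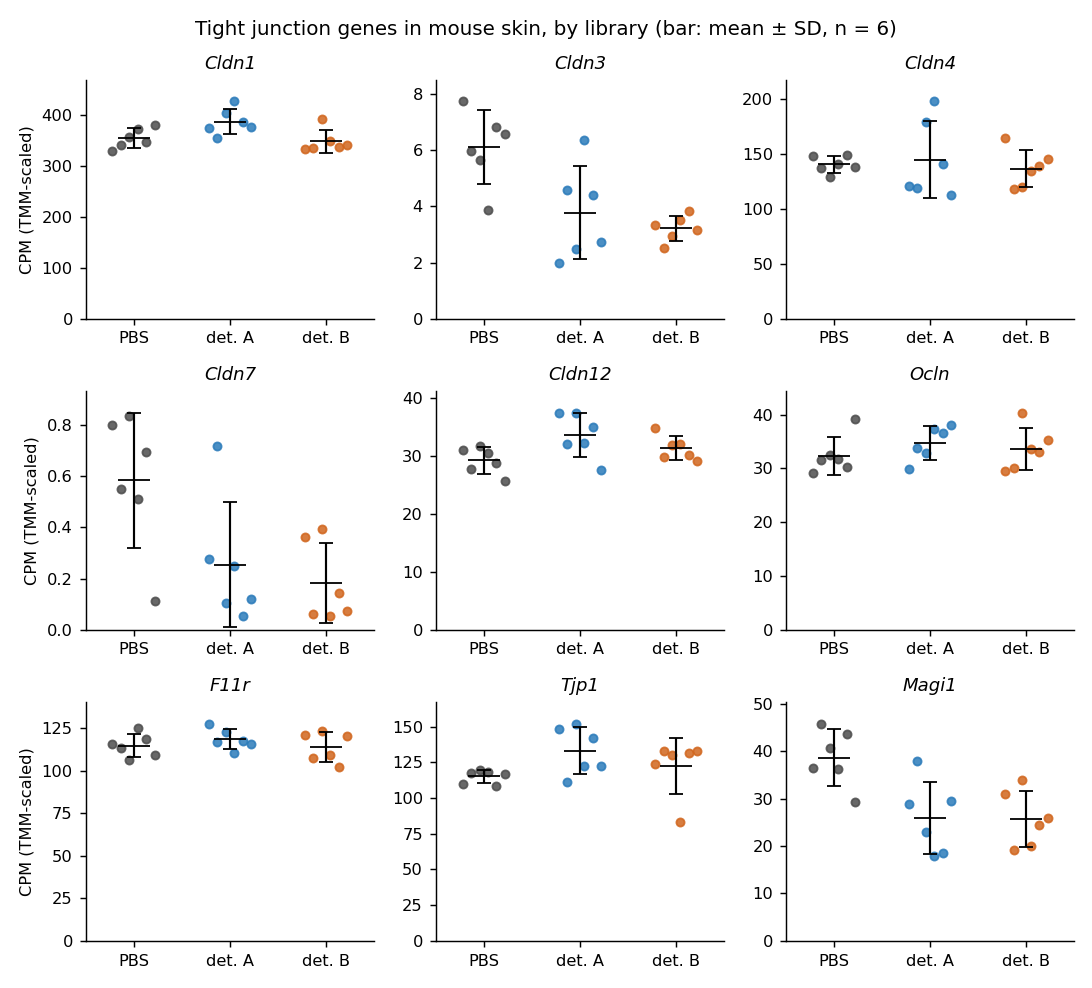
CPM of each of the 9 members (vertical axes, each starting at 0) in the 6 libraries of each group, with black bars for the mean ± SD. All 6 detergent B points of Cldn3 lie below the lowest PBS point, whereas in the other 8 panels the groups overlap.

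The members differed widely in abundance. To compare genes, CPM was divided by the exonic length in kilobases (CPM per kb). In PBS skin the order was Cldn4 at 77.4 ± 4.24 CPM per kb (SD, n = 6), Cldn1 at 73.4 ± 4.14, F11r at 43.2 ± 2.52, Tjp1 at 14.8 ± 0.597, Ocln at 7.67 ± 0.835, Cldn12 at 6.92 ± 0.546, Cldn3 at 4.86 ± 1.04, Magi1 at 3.65 ± 0.562 and Cldn7 at 0.299 ± 0.136. The libraries of Cldn4 and Cldn1 overlapped on this scale, and so did those of Ocln with Cldn12, of Cldn12 with Cldn3 and of Cldn3 with Magi1. The same order held with detergent B, and with detergent A Cldn1 and Cldn4 changed places.

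Among the 23 listed claudin genes found in the files, Cldn1 and Cldn4 together supplied most of the summed claudin level per kb. Their joint share was 77.3 ± 1.90% in PBS (SD, n = 6), 80.6 ± 2.71% with detergent A and 79.1 ± 1.47% with detergent B. Cldn3 made up 2.49 ± 0.524% of the sum in PBS, and its mean share was 1.49% with detergent A and 1.37% with detergent B. Of the 23 listed, 11 fell below the filter on low counts, none of them above 0.671 CPM in any library, and Cldn18 and Cldn24 had no read in any of the 18.

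**Figure D2:**
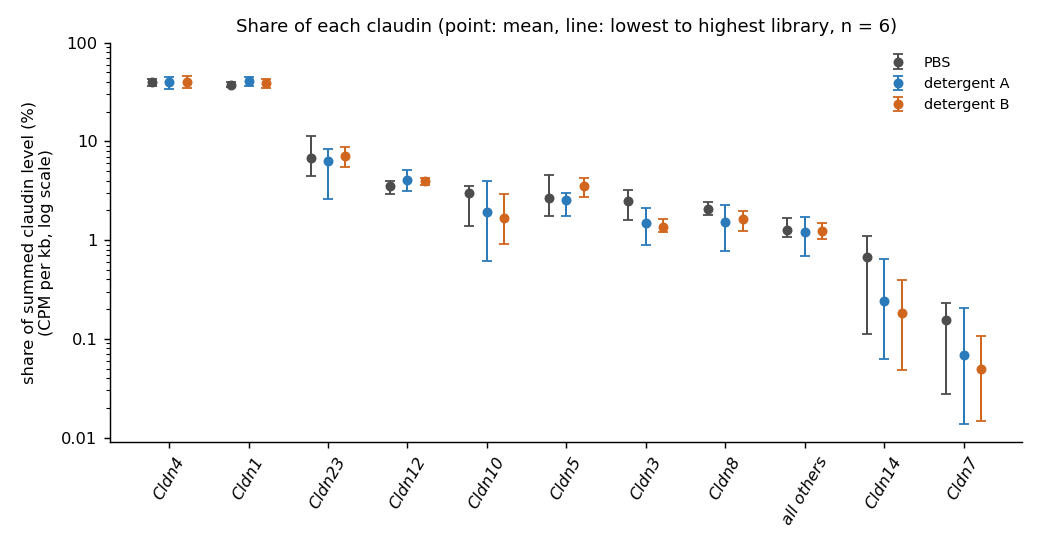
Share of each claudin in the summed claudin level of a library (vertical axis, percent of CPM per kb over 23 claudin genes, log scale), as the group mean with a line from the lowest to the highest of 6 libraries. Cldn4 and Cldn1 lead in every group, with PBS means of 39.7% and 37.6%.

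Cldn1, the claudin without which the epidermal seal fails, had the highest counts of the members, between 5488 and 10280 reads per library. In PBS its lowest, median and highest libraries held 329, 353 and 382 CPM. With detergent A they held 356.5, 381.5 and 427.5 CPM, and all 6 libraries lay above the PBS mean, 3 of them above the highest PBS library. With detergent B they held 333, 340 and 392 CPM, inside or near the PBS range, with replicate 3 the one library above it. The log2 fold change was 0.13 for detergent A (95% confidence interval -0.01 to 0.27, adjusted p = 0.318, edgeR) and -0.03 for detergent B (-0.17 to 0.11, adjusted p = 0.839).

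Cldn4 is a claudin of the upper epidermal layers and of many simple epithelia. It ranged from 129 to 150 CPM in PBS (median 139.5), from 113 to 198 CPM with detergent A (median 131) and from 118 to 164 CPM with detergent B (median 136). Detergent A replicates 3 and 4, at 179 and 198 CPM, stood above all PBS libraries while 3 other libraries of that group stood below all of them. The fitted difference was 0.04 with detergent A (95% confidence interval -0.22 to 0.31, adjusted p = 0.882, edgeR), and its sign turned when either of those libraries was left out (-0.02 without replicate 3 and -0.06 without replicate 4). With detergent B it was -0.04 (-0.30 to 0.23, adjusted p = 0.879).

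Cldn3 is a sealing claudin best known from simple and glandular epithelia, and here it was a minor claudin with 36 to 242 reads per library. In PBS the lowest, median and highest libraries held 3.89, 6.29 and 7.74 CPM. With detergent B they held 2.52, 3.24 and 3.83 CPM, so that every detergent B library was below every PBS library. With detergent A they held 1.998, 3.58 and 6.38 CPM, which overlapped PBS, with 3 of 6 libraries below the lowest PBS value. Of the genes tested, 1.12% had all detergent B libraries below all PBS libraries, and 1.36% had no overlap between detergent A and PBS in either direction, which held for 0 of the 9 members.

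The mean of Cldn3 was 6.12 ± 1.31 CPM in PBS (SD, n = 6), 3.21 ± 0.456 with detergent B and 3.77 ± 1.66 with detergent A. The log2 fold change with detergent B was -0.93 (SE 0.24, 95% confidence interval -1.43 to -0.43, adjusted p = 0.0451, edgeR). That is 1 of 9 members called, beside 3.05% of all genes tested (1.08% lower and 1.97% higher). For detergent A the log2 fold change was -0.69 (95% confidence interval -1.19 to -0.20, adjusted p = 0.137, edgeR), which missed the threshold, and 0 of 9 members were called, beside 0.19% of all genes (0.0535% higher and 0.137% lower). At an unadjusted p under 0.05 there were 4 members for detergent A in edgeR (Cldn3, Cldn7, Cldn12 and Magi1) and 5 in DESeq2 (these and Cldn1), which called 0. Cldn7, counted here, passed the filter mainly through its PBS libraries. No DESeq2 adjusted p was available for it, so the 0 calls cover the other members. The background was 3158 of 16836 genes in edgeR and 3673 of 28040 in DESeq2, which includes low-count genes that the edgeR filter removed. For detergent B it was 3931 genes in edgeR and 4552 in DESeq2. Over all 28040 genes DESeq2 called 788 for detergent A and 1385 for detergent B. These backgrounds also apply to the lists below. For Cldn3 no difference between detergents B and A was called (log2 difference -0.23, 95% confidence interval -0.74 to 0.27, adjusted p = 0.989).

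The call of Cldn3 with detergent B lay close to the threshold. It was lost when any of 9 single libraries was left out (PBS replicates 1, 2, 3 and 5, detergent A replicate 5, detergent B replicates 2, 4, 5 and 6), with adjusted p-values up to 0.104 in edgeR, while the log2 fold change stayed between -1.03 and -0.85. With the hair keratin score as a covariate the difference was -1.10 (adjusted p = 0.120, edgeR). Its unadjusted p was 0.00054 there and 0.00104 in the main fit, and the covariate fit called 5 of 16836 genes for detergent B. With the basal epidermal score the difference was -0.93 (adjusted p = 0.0383). The glandular and simple epithelial marker list, of which 5 of 8 genes had a mean of at least 1 CPM, summed to 115 to 182 CPM in PBS, 116 to 169 CPM with detergent A and 137 to 217 CPM with detergent B. Within that list Krt8 and Krt18 stayed below 2 CPM and Foxa1 was at 0 in all PBS libraries, and the part of glandular content in the Cldn3 values was not tested.

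Because library scaling cancels in a ratio of genes within a library, Cldn3 was also set against Cldn1. This ratio tests the member already called once more in the same libraries, so it is not independent of that call. Its p-values were adjusted over 3 comparisons, not over all genes tested. The fitted level of Cldn1 was itself 0.13 log2 units above PBS with detergent A, which widens that ratio difference. There were 17.4 ± 4.34 Cldn3 reads per 1000 Cldn1 reads in PBS (SD, n = 6, range 10.4 to 23.5), 9.67 ± 3.96 with detergent A (5.32 to 14.9) and 9.26 ± 1.51 with detergent B (7.47 to 11.3). The highest detergent B library exceeded only the lowest PBS library. The mean log2 ratio differed from PBS by -0.91 with detergent A (exact two-sided permutation p = 0.0173, adjusted over 3 comparisons 0.0260) and by -0.88 with detergent B (p = 0.00433, adjusted 0.0130). No p below 0.00217 is possible with 6 libraries against 6. The detergent A difference lost the threshold when PBS replicate 1 or 5 or detergent A replicate 1, 3 or 6 was left out (adjusted exact p = 0.0520 in each case). Between the detergents the log2 ratio differed by 0.03 (exact permutation p = 0.916).

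**Figure D3:**
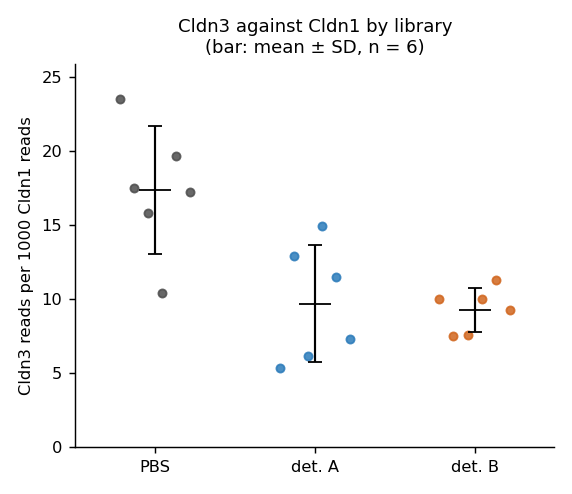
Cldn3 reads per 1000 Cldn1 reads in each of the 18 libraries (vertical axis starting at 0), with black bars for the mean ± SD of 6 libraries. PBS libraries reach 23.5, whereas no library of either detergent exceeds 14.9.

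Cldn3 and Cldn4 are neighbours in the mouse genome, each with a single exon. Cldn3 lies on the plus strand of chromosome 5 (GRCm38, 134986214 to 134987472) and Cldn4 on the minus strand (134945119 to 134946934), with 39279 bases between them. Cldn3 shares 40 of its 1259 exonic bases with the antisense gene Wbscr25 on the opposite strand, so reads there cannot be told apart without the strand setting. Wbscr25 had at most 4 counts in any library. The promoter windows of Cldn3, of its neighbour Cldn4, whose level did not pass the test, and of Cldn1, the member with the most reads, are printed to set the gene that fell beside the principal claudins. Each runs from 250 bases before to 50 bases after the transcript start in RefSeq (GRCm38.p6), 5′ to 3′ on the gene's own strand. They cover chr5:134985964-134986263 on the plus strand for Cldn3, chr5:134946885-134947184 on the minus strand for Cldn4 and chr16:26371790-26372089 on the minus strand for Cldn1. Capitals mark matches to GGGCGG (the GC box bound by Sp family factors) and CAGGTG (an E-box of the kind bound by Snail repressors) on either strand.
Cldn3: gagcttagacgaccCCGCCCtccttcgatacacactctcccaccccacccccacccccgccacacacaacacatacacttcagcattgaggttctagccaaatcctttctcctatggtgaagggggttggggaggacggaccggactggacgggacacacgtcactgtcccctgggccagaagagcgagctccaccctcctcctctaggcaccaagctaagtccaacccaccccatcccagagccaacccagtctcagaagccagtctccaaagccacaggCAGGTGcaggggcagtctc
Cldn4: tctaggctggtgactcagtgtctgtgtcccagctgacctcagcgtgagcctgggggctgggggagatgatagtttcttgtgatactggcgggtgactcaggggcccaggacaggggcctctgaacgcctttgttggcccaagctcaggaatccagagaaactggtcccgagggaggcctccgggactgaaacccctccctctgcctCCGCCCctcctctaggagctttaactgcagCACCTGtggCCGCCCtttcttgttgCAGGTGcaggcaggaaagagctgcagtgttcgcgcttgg
Cldn1: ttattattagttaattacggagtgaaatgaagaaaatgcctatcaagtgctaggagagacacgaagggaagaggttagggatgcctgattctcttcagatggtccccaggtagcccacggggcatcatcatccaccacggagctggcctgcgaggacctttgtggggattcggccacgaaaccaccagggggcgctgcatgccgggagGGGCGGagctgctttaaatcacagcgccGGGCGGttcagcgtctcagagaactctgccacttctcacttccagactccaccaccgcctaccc

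The Cldn3 window held 1 GC box and 1 E-box, the Cldn4 window 2 of each, and the Cldn1 window 2 GC boxes and no E-box, and no match overlapped another. Of the 32851 RefSeq windows of this length, 35.7% held GGGCGG and 20.2% held CAGGTG. All 9 members matched RefSeq, with 14 windows between them, and none of the 14 held AACCNGGTT (the grainyhead-like site, in 0.271% of all windows), TATAAA (the TATA box, 13.6%) or CCACACCC (a KLF-type box, 3.56%), searched on both strands. These matches describe the letters of the windows and are not evidence of binding.

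Cldn12, a claudin that lacks the usual binding motif for zonula occludens proteins, was the member with the next smallest p for detergent A after Magi1 and Cldn3. Its libraries ran from 25.7 to 31.8 CPM in PBS (median 29.7), from 27.7 to 37.5 CPM with detergent A (median 33.7) and from 29.1 to 34.9 CPM with detergent B (median 31.1). With detergent A, 5 of 6 libraries exceeded the highest PBS library and replicate 6 did not. The log2 fold change was 0.20 (95% confidence interval 0.03 to 0.37, adjusted p = 0.190, edgeR) with detergent A and 0.10 (-0.07 to 0.27, adjusted p = 0.478) with detergent B.

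Cldn7, a claudin of glandular and other simple epithelia, was near the limit of detection, with 1 to 25 reads per library. Its lowest, median and highest libraries held 0.112, 0.621 and 0.835 CPM in PBS, 0.0527, 0.185 and 0.718 CPM with detergent A, and 0.0548, 0.108 and 0.395 CPM with detergent B. PBS replicate 6 lay inside the range of the detergent libraries, and detergent A replicate 2 lay inside that of the other PBS libraries. The log2 fold change was -1.17 with detergent A (95% confidence interval -2.29 to -0.05, adjusted p = 0.248, edgeR) and -1.64 with detergent B (-2.82 to -0.46, adjusted p = 0.101). Cldn7 passed the filter on low counts mainly through its PBS libraries, which favours a lower value with the detergents. Its differences are therefore a description, including that without PBS replicate 6, -1.83 with detergent B (adjusted p = 0.0362).

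Ocln, the first tight junction membrane protein to be identified, held 29.2, 31.6 and 39.2 CPM in its lowest, median and highest PBS libraries. It held 29.97, 35.2 and 38.1 CPM with detergent A and 29.5, 33.3 and 40.4 CPM with detergent B. The groups overlapped almost completely. The log2 fold change was 0.10 with detergent A (95% confidence interval -0.08 to 0.29, adjusted p = 0.549, edgeR) and 0.06 with detergent B (-0.13 to 0.25, adjusted p = 0.730).

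F11r, an adhesion molecule of the immunoglobulin superfamily at the junction, varied little. It ranged from 107 to 125 CPM in PBS, from 111 to 128 CPM with detergent A and from 102 to 124 CPM with detergent B. The log2 fold change was 0.05 with detergent A (95% confidence interval -0.09 to 0.18, adjusted p = 0.735, edgeR) and -0.01 with detergent B (-0.14 to 0.12, adjusted p = 0.942).

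Tjp1, the scaffold that binds claudins, occludin and F11r through separate domains, had a narrow PBS range of 109 to 120 CPM (median 117). With detergent A it held 111, 132 and 152 CPM in the lowest, median and highest libraries, and 5 of 6 exceeded the highest PBS library. With detergent B it held 83.1, 131 and 133 CPM. There, 5 libraries between 124 and 133 CPM all exceeded the highest PBS library, and replicate 4, at 83.1 CPM, was below the lowest. Neither difference passed the test, with log2 fold changes of 0.21 for detergent A (95% confidence interval -0.01 to 0.43, adjusted p = 0.290, edgeR) and 0.09 for detergent B (-0.13 to 0.31, adjusted p = 0.636). Without detergent B replicate 4 the latter was 0.19 (adjusted p = 0.200).

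Magi1, a membrane-associated scaffold found at tight and adherens junctions, held 29.3, 38.5 and 45.8 CPM in its lowest, median and highest PBS libraries. It held 17.9, 25.9 and 37.9 CPM with detergent A and 19.1, 25.1 and 33.8 CPM with detergent B. All 12 detergent libraries were below the PBS mean, and 4 of 6 in each detergent group were below the lowest PBS library, replicate 6. The log2 fold changes were -0.58 for detergent A (95% confidence interval -0.95 to -0.20, adjusted p = 0.113, edgeR) and -0.59 for detergent B (-0.97 to -0.21, adjusted p = 0.0741), so neither passed.

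Some alternatives brought the Magi1 differences past the threshold, and most single-library fits did not. Of 18 fits that each left out 1 library, 2 passed for detergent A and 3 for detergent B. The highest adjusted p-values among those fits were 0.280 and 0.171 (edgeR). With detergent B the adjusted p was 0.0321 in DESeq2 and 0.0398 in edgeR fitted to the 12 libraries compared. With the basal epidermal score as a covariate it was 0.0368, at a log2 difference of -0.46. Leaving out PBS replicate 6, detergent A replicate 2 or detergent B replicate 3 also brought it past, with adjusted p-values of 0.0319, 0.0471 and 0.0409 in edgeR. With detergent A the difference passed without PBS replicate 6 (adjusted p = 0.0486) and without detergent A replicate 2 (adjusted p = 0.0267).

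**Figure D4:**
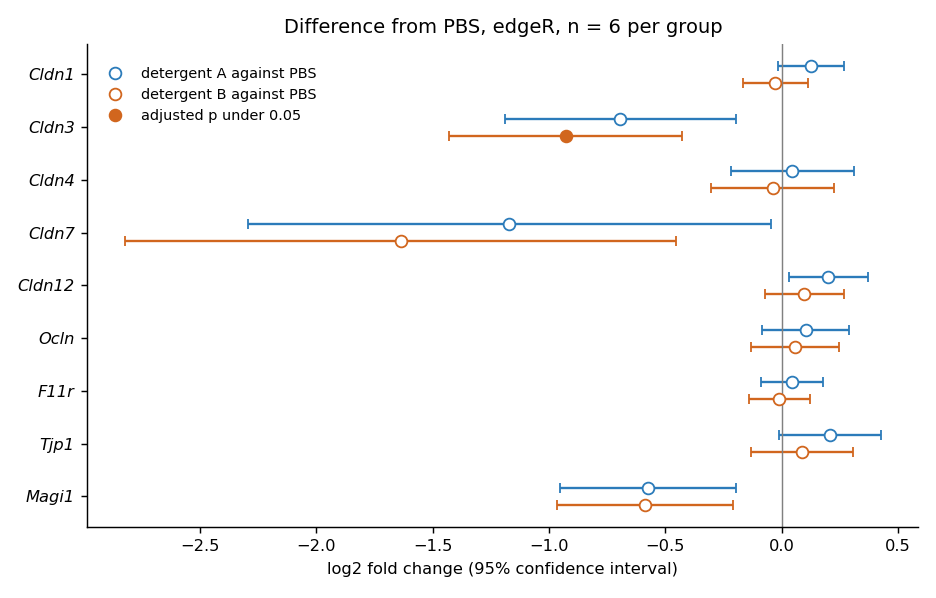
Log2 fold change against PBS (horizontal axis) with its 95% confidence interval for each member and each detergent, from edgeR with 6 libraries per group. The one filled point, past an adjusted p of 0.05, is Cldn3 with detergent B at -0.93.

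Magi1 followed the hair keratin content of the library. A hair score was taken as the mean log2 CPM of the hair shaft and inner root sheath genes, and a slope on it was fitted within groups, a test chosen after the data were seen. Magi1 rose by 0.12 ± 0.02 log2 units per unit of the score (SE, adjusted p = 3.07e-05, edgeR) and Cldn7 by 0.34 ± 0.08 (adjusted p = 0.00388). The Cldn7 slope rests on 1 to 25 reads per library, in a gene that passed the filter mainly through PBS, and is a description. For the other 7 members the adjusted p lay between 0.176 and 0.769, with Cldn3 at a slope of -0.05 (adjusted p = 0.360). The 2 of 9 members past the threshold, 22.2%, compare with 25.2% of all genes tested (13.7% with a positive and 11.5% with a negative slope), a share near the background.

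The hair score itself was lower in the detergent groups, with medians of 5.48 in PBS, 2.34 with detergent A and 1.12 with detergent B, and with overlapping ranges. With the score in the model, the log2 difference of Magi1 from PBS was -0.23 for detergent A (95% confidence interval -0.44 to -0.01, adjusted p = 0.452, edgeR) and -0.21 for detergent B (-0.43 to 0.01, adjusted p = 0.457). For Cldn7 these values were -0.24 and -0.64 (adjusted p = 0.862 and 0.645). The defining hair gene Krt71 was present in all libraries but fell to 0.542 CPM in the lowest. Whether hair follicle content or expression within cells set these levels was not tested.

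**Figure D5:**
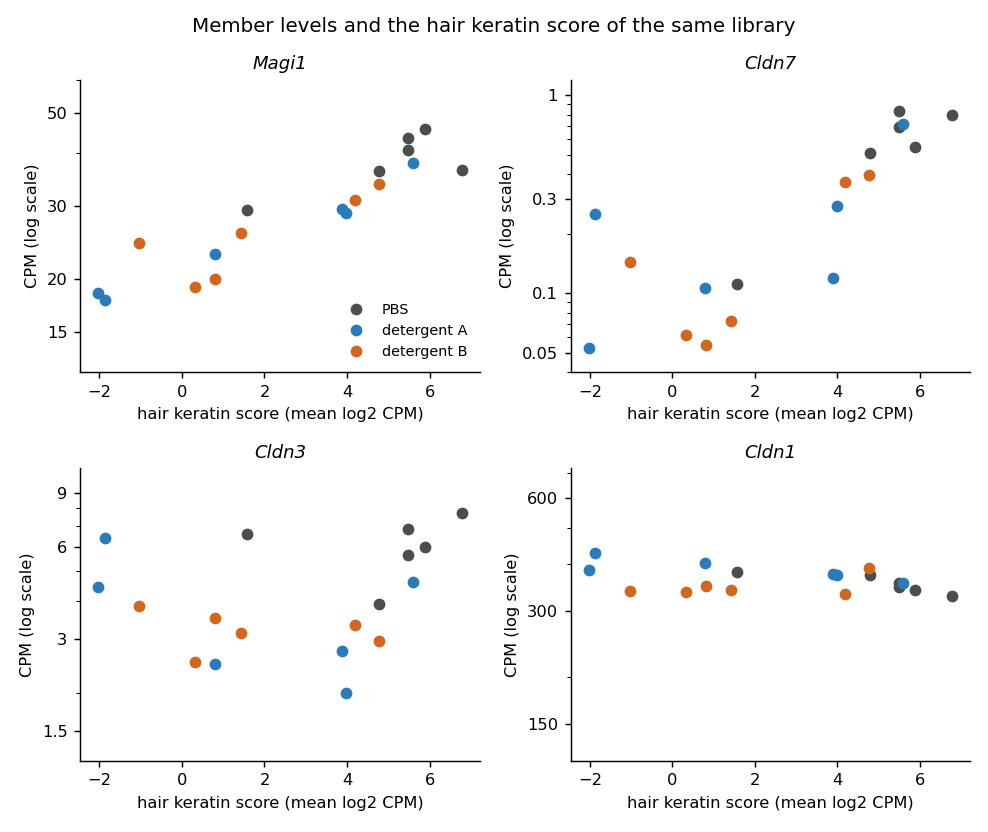
CPM of Magi1, Cldn7, Cldn3 and Cldn1 (vertical axes, log scale) against the hair score of the same library (horizontal axis, mean log2 CPM of hair shaft and inner root sheath genes), 1 point per library coloured by group. Magi1 and Cldn7 climb with the score, with fitted slopes of 0.12 and 0.34, whereas the slopes of Cldn3 and Cldn1, -0.05 and -0.01, did not pass the test. The Cldn7 points rest on 1 to 25 reads per library.

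Detergent B was compared with detergent A directly. No member passed the test, with adjusted p-values between 0.989 and 0.997, and edgeR called 0 of the 16836 genes (0.0%). At an unadjusted p under 0.05 there were 550 genes in edgeR and 770 in DESeq2, which also called none. Fitted values of all 9 members were lower with detergent B than with detergent A, by -0.01 for Magi1 to -0.47 for Cldn7, as were 50.1% of all genes. No member was free of overlap between the detergents, as were 0.0594% of all genes. The one member whose 95% confidence interval did not include 0 was Cldn1 (log2 difference -0.15, interval -0.29 to -0.01, adjusted p = 0.989, edgeR), where 5 of 6 detergent B libraries lay below the lowest detergent A library.

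Within groups the members did not vary as a block. After centring on the group means, the closest pair over the 18 libraries was Cldn7 with Magi1 (Pearson r = 0.75), followed by Cldn1 with Ocln (0.67), and the most opposed was Cldn12 with Ocln (-0.55). These correlations describe libraries that share depth and tissue composition, and carry no test. Among 14051 protein-coding genes, the 3 most similar to Tjp1 were Ralgapb, Garem1 and Sptan1 (r between 0.92 and 0.94), and those most similar to Magi1 were Robo1, Zscan21 and Nab2 (0.93 to 0.94). Ocln was closest to Ccr4 (0.91), Flg2 (0.89), a cornified layer gene of the filaggrin family, and Ano7 (0.88). Cldn4 was closest to Adrm1 (0.91), Rabggta (0.90) and Ier2 (0.89), and Cldn3 to Wnt9a (0.83), Npepl1 (0.82) and Aup1 (0.80). The genes nearest to Cldn1 were Slc6a14, Samd8 and Liph (0.79 to 0.82), and those nearest to F11r were Bmpr1a, Cnot2 and Dio2 (0.78 to 0.82). Cldn12 was closest to Rad23b, Mars and Rangap1 (0.88 each). For Cldn7, at so few reads, they were Nfil3, Ttyh2 and Gprc5a (0.93 to 0.94).

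The other claudins listed gave 8 genes with enough reads to test. Of these, 1 rose with detergent B and 0 fell, while 0 passed with detergent A (3 at an unadjusted p under 0.05 in edgeR, 1 called in DESeq2, Cldnd1). With detergent B, DESeq2 called Cldnd1 and Cldn14 (adjusted p = 0.0133 and 0.0269), beside 1385 of 28040 genes. The median log2 fold change was -0.11 with detergent A and -0.03 with detergent B, beside -0.01 for all genes in both comparisons. The gene that rose was Cldnd1, a claudin domain protein. Its lowest, median and highest libraries held 94.4, 99.2 and 117 CPM in PBS and 118, 131 and 138 CPM with detergent B, so the groups did not overlap, which held for 1.72% of all genes in the higher direction. The log2 fold change was 0.35 (SE 0.09, adjusted p = 0.0468, edgeR), and with detergent A it was 0.40 (adjusted p = 0.0584). The detergent B call was lost without any of 12 of the 18 libraries (adjusted p up to 0.118), and with the hair score in the model the difference was 0.20 (adjusted p = 0.331). Cldn23, the most abundant of the remaining claudins per length, had means of 24.8 CPM in PBS, 23.6 with detergent A and 24.6 with detergent B.

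Among 11 further membrane proteins of the junction, 0 passed edgeR's test with either detergent (2 for detergent A and 5 for detergent B at an unadjusted p under 0.05), DESeq2 also called 0, and the median log2 fold change was -0.20 with detergent A and 0.01 with detergent B. The most abundant per length were Lsr, the tricellular junction protein angulin 1, with means of 104, 89.8 and 93.7 CPM in PBS, detergent A and detergent B, and Cxadr, an adhesion molecule known as the coxsackievirus and adenovirus receptor, with 174, 198 and 202 CPM. For Lsr the adjusted p was 0.226 and 0.330 (edgeR), and for Cxadr 0.319 and 0.193.

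Among 25 further scaffold and polarity genes, 0 passed edgeR's test (3 for detergent A and 5 for detergent B at an unadjusted p under 0.05). DESeq2 called 0 and 3 (Amotl2, Pard3b and Sympk, named after their values were seen), beside 788 and 1385 of 28040 genes. Fitted values were below PBS for 17 of 25 with each detergent (68.0%, beside 51.7% of all genes with detergent A and 51.3% with detergent B). The median log2 fold change of the 25 genes was -0.06 with detergent A and -0.11 with detergent B. The transcription factor Ybx3, which binds Tjp1, had means of 432, 429 and 489 CPM in PBS, detergent A and detergent B, and the polarity protein gene Pard6g had 104, 125 and 115 CPM. Detergent B replicate 4, the library with the low Tjp1 value, was the lowest of its group for 11 of the 25 genes and for 2 of the 9 members. The share over all genes was not counted. Compared with the other detergent B libraries, replicate 4 had a median log2 difference of 0.30 over 3200 genes with exons under 2 kb and of -0.20 over 4628 genes with exons over 6 kb. The part of this in its Tjp1 value was not tested.

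Of 15 adherens junction genes, which build the cadherin-based belt below the tight junction, 0 passed edgeR's test with either detergent (3 for each at an unadjusted p under 0.05), and DESeq2 called 1 for detergent A (Cdh1, E-cadherin) and 0 for detergent B. The most abundant per length were Jup (plakoglobin, 949 to 1671 CPM over the detergent libraries and 1011 to 1360 CPM in PBS) and Ctnnb1 (beta-catenin, with means of 739, 704.5 and 676 CPM, in PBS, detergent A and detergent B). Of 17 genes that regulate junction genes or proteins, 1 fell with detergent B and 0 passed with detergent A (1 at an unadjusted p under 0.05 in edgeR, 1 called in DESeq2, Snai1). With detergent B, DESeq2 called F2rl1 and Snai1. Snai1, a repressor of junction genes named after its values were seen, had log2 fold changes of -0.57 and -0.60 with detergents A and B in DESeq2 (adjusted p = 0.0339 and 0.0184), and -0.57 and -0.59 in edgeR (adjusted p = 0.0999 and 0.0621). The gene that fell in edgeR was F2rl1, the protease-activated receptor 2 that senses skin proteases. Its lowest, median and highest libraries held 58.6, 63.2 and 66.7 CPM in PBS and 40.6, 48.3 and 60.1 CPM with detergent B, where 5 of 6 were below the lowest PBS library. The log2 fold change was -0.34 (SE 0.09, adjusted p = 0.0469, edgeR), and the call was lost without any of 12 of the 18 libraries (adjusted p up to 0.113), in a fit of the 12 libraries compared (adjusted p = 0.0658) and with the hair score in the model (-0.25, adjusted p = 0.286). The most abundant regulators per length, Klf4 and Epcam, had detergent B means of 455 and 240.1 CPM against 361 and 220 CPM in PBS, with adjusted p-values of 0.206 and 0.513.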

How the data were processed

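RNA sequencing counts of 18 mouse skin libraries were used, 6 per group. The values the authors deposited are raw counts, whole numbers with unequal library totals. The submitters' processing notes name GRCm38.p5, STAR and featureCounts. Tool versions, annotation and strand setting are not given in these sources. Of 41605 gene IDs, 41519 matched GENCODE M21 (GRCm38), which gave symbols, coordinates and exonic lengths, and 86 did not.

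The edgeR filter (4.0.16, R 4.3.3) kept 16836 genes with at least 99.9% of each library's counts, all 9 members among them. TMM scaling and a robust quasi-likelihood fit with group as its term used all 18 libraries (15 residual degrees of freedom). P-values were adjusted by Benjamini-Hochberg over all genes tested, and the SE is the log2 fold change divided by the square root of F. The scripts were tested on simulated data with known changes. Between any 2 libraries the chi-square per gene was at least 9.36, so none agreed within sampling noise, and no library was left out. For likeness and marker scores, log2 CPM used a prior count of 2.

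Alternatives were DESeq2 (1.42.0), other size factors, no filter, fits of 12 libraries, a replicate block, marker scores as covariates and leaving out each library. Hair score slopes and the split of detergent B replicate 4 by gene length were added after seeing the data. The members and lists were chosen with earlier results of these data known. All members are named, and of other lists the genes past the threshold and the 2 most abundant per length, and per member the 3 genes most like it.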

Additional observations from a re-analysis of the deposited data

Results flagged for a closer look

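In 30 groups of 6 libraries (9 members and the Cldn3 to Cldn1 ratio), 4 libraries stood far from the rest of their group by Dixon's criterion at 95%, which chance meets in about 1 in 20 groups. Cldn1 was 392 CPM in detergent B replicate 3, against 333 to 350.5 CPM in the other 5, and without it the log2 fold change against PBS was -0.06. Cldn7 was 0.718 CPM in detergent A replicate 2, against 0.0527 to 0.278 CPM in the others, and without it the log2 fold change of detergent A was -1.84 (adjusted p = 0.0543, edgeR). This difference is a description, as Cldn7 passed the filter mainly through PBS. It had 1 to 6 reads in the other detergent A libraries and 17 in detergent A replicate 2. That library also had the highest hair score of its group, 5.60. Ocln was 39.2 CPM in PBS replicate 6, the PBS library with the lowest hair score, against 29.2 to 32.5 CPM in the others. Tjp1 was 83.1 CPM in detergent B replicate 4, against 124 to 133 CPM in the others.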

How the results depend on the processing

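Members are limited in precision by 6 libraries per group and, for Cldn7 and Cldn3, by low counts. Of 726 alternative values of the members, 683 kept direction and side of the threshold, 9 passed it newly, 12 lost it and 22 turned sign. All 12 losses were of Cldn3 with detergent B, the one call among the members. Most values that kept their side were thus differences that had not passed to begin with. The cause of these changes was not tested.
The number of genes past the threshold also varied widely. For detergent A it was 32, against 788 in DESeq2 and 0 in edgeR with a replicate block, with the hair score or with the basal epidermal score (3332, 1815 and 1764 genes at an unadjusted p under 0.05). For detergent B it was 514, against 1385 in DESeq2, 251 without the filter, 5 with the hair score and 797 with the basal score. Leaving out single libraries gave 0 to 888 genes for detergent A and 28 to 1888 for detergent B.

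Whether replicate numbers pair the libraries was not tested. Of 18 pairs with the same number, 8 had a correlation above 0.1 (range -0.35 to 0.55), and 6 of 18 libraries correlated best with their own number. With the replicate block, Cldn3 with detergent B was -0.94 (adjusted p = 0.0613, edgeR), Magi1 between the detergents 0.0050, and the Cldn3 to Cldn1 log2 ratio -0.91 and -0.88 for detergents A and B (adjusted p = 0.141 and 0.0938 by exact sign permutation). With 6 pairs no unadjusted p below 0.03125 is possible. Detergent B, lower than PBS in 6 of 6 pairs, was at that floor, and detergent A, lower in 5 of 6, was not. A lone comparison at the floor cannot pass after adjustment over 3 comparisons, so its adjusted p does not measure a weaker effect. Without the filter, Cldn3 with detergent B had an adjusted p of 0.0561.

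Signs turned for the following differences, none of which had passed the test. Cldn4 with detergent A was -0.10 with the hair score and -0.10 with the basal score. F11r with detergent B was 0.051 with the hair score. Between the detergents, Cldn4 was 0.0024 with the basal score, Magi1 0.015 with the hair score, and the log2 ratio -0.073 with Krt5 as denominator. Leaving out single libraries gave -0.065 to 0.11 for Cldn4 with detergent A, -0.090 to 0.00061 with detergent B and -0.16 to 0.026 between detergents. It gave -0.89 to 0.20 for Cldn7 and -0.11 to 0.13 for Magi1 between detergents, -0.034 to 0.020 for F11r and -0.0010 to 0.12 for Ocln with detergent B. For the ratio it gave -1.06 to -0.76 for detergent A, -1.02 to -0.79 for detergent B and -0.12 to 0.17 between detergents.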

Other observations

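Claudins outside the 9 members also moved with the hair score, and the genes below were picked after their values were seen. Of 12 claudin genes tested, members included, 5 had a slope past the threshold (41.7%, beside 25.2% of all genes), 3 of them positive. Cldn14, with 3 to 143 reads per library, rose by 0.46 log2 units per unit of the score (adjusted p = 1.78e-06, edgeR). Cldn10 rose by 0.28 (adjusted p = 1.23e-08). The 5 include the member Cldn7, whose positive slope is a description. It rests on 1 to 25 reads per library, in a gene that passed the filter mainly through PBS. The slopes of Cldn23 and Cldn5 were negative, at -0.13 and -0.14. Cldn14 had means of 2.785 CPM in PBS, 0.953 with detergent A and 0.736 with detergent B, and Cldn10 had 15.1, 9.34 and 8.25 CPM, and neither passed against PBS in edgeR (adjusted p = 0.0798 and 0.168 with detergent B). DESeq2 called Cldn14 with detergent B (adjusted p = 0.0269).

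Of 25 further scaffold and polarity genes, 7 had a slope past the threshold, 3 positive and 4 negative, a share of 28.0% that is near the background. Tjp3 and Cgn, genes for the scaffolds zonula occludens 3 and cingulin, had negative slopes of -0.15 (adjusted p = 0.00110, edgeR) and -0.10 (adjusted p = 0.00722). Of 15 adherens junction genes, 4 passed (26.7%), 3 of them positive. The cadherin gene Cdh3 (P-cadherin) and Nectin3 had positive slopes of 0.17 (adjusted p = 7.71e-06) and 0.23 (adjusted p = 5.16e-06).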
